A study of Mus musculus with 9 samples.

Results

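Oxidative phosphorylation genes encode the subunits of the enzyme complexes I to V of the inner mitochondrial membrane, and 98 of the 54532 rows of the gene count table were taken as members. A row was a member if it was annotated as protein coding and either lay on the mitochondrial chromosome or carried 1 of the subunit symbols: Nduf followed by a, b, c, s or v and a digit, Sdha to Sdhd, Uqcr, Cox4 to Cox8, or Atp5, with symbols ending in Rik or -ps left out. This gave 13 mitochondrial members, of which 7 belong to complex I, 1 to complex III, 3 to complex IV and 2 to complex V. It also gave 85 nuclear members, 37 in complex I, 4 in complex II, 8 in complex III, 18 in complex IV and 18 in complex V. Complexes were assigned from the symbols alone. Ndufa4, Ndufa4l2 and Cox7a2l thus stay where their names put them, which need not be the complex their products serve. The 98 rows carry 97 names, because Atp5o stands in the table under 2 identifiers, and the row ENSMUSG00000116933 had no count in any library. Cox7b2, whose product is known from testis, had no count either. After the filter on low counts, 12 mitochondrial and 82 nuclear members could be tested; mt-Atp8, Cox7b2, Cox8c and the empty Atp5o row could not.

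Bulk RNA sequencing measured polyA-enriched RNA of mouse prostate in 3 genotypes at Srd5a2, which encodes the type II steroid 5-alpha-reductase that makes dihydrotestosterone. KO mice carried 2 null alleles (Srd5a2-/-), Het mice 1 (Srd5a2+/-) and WT mice none, all from a breeding scheme that crossed Het males with C57BL6 females with KO males reached in the third generation. Each genotype has 3 libraries, numbered here in accession order, and the labels do not say whether each is 1 animal or a pool, so each p-value speaks of the spread among these libraries, which could be technical only. The sources used here do not give the age of the mice, the lobes taken or how the null allele was built. The series title concerns prostate growth; the contrasts here compare respiratory chain mRNA between mice lacking both, 1 or none of the Srd5a2 alleles.

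The libraries held 16233392 to 24017791 counts. Srd5a2 itself was at 0.933, 0.512 and 1.15 CPM (counts relative to the TMM-scaled library total) in KO, 3.67, 5.19 and 2.37 CPM in Het and 2.30, 5.499 and 8.80 CPM in WT. Every KO library was thus below every Het and every WT library, while Het and WT overlapped. edgeR's quasi-likelihood test with Benjamini-Hochberg adjustment gave the KO against WT difference as -2.67 on the log2 scale (SE 0.62), with an adjusted p of 1. Tissue content differed widely between libraries of 1 genotype. The summed CPM of 9 seminal vesicle genes, all detected, was 96671 to 194368 in KO, 6587 to 358848 in Het and 31148 to 221275 in WT, and that of 11 secretory luminal genes of the prostate was 52644 to 72998 in KO, 4844 to 177980 in Het and 14746 to 83253 in WT.

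Oxidative phosphorylation passes electrons from NADH (complex I) and succinate (complex II) through complex III and cytochrome c to oxygen at complex IV, and the proton gradient this builds drives ATP synthesis by complex V. The mitochondrial genome is transcribed as long polycistronic RNAs that are cut into the mRNAs of a few core subunits, while the remaining subunits, all of complex II among them, are made from nuclear genes and imported. In the prostate the secretory epithelium is known for exporting citrate, a substrate that other tissues oxidise in the citric acid cycle.

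The mitochondrial mRNAs stood at 2 levels. On the deposited FPKM scale, which is per length, mt-Co1 (the catalytic subunit of complex IV) averaged 6731 over the 9 libraries, mt-Cytb (complex III) 4642, mt-Nd1 3641, mt-Nd4 1883, mt-Nd6 1842, mt-Nd2 1812 and mt-Nd5 1391, the last 5 being complex I subunits. The other 6 were far lower. mt-Co2 averaged 90.02 FPKM, mt-Co3 48.2, mt-Atp6 46.3, mt-Nd3 41.6, mt-Nd4l 14.8 and mt-Atp8 1.21. These 6 genes are neighbours, from the start of mt-Co2 at MT:7013 to the end of mt-Nd4l at MT:10173, between mt-Co1 (MT:5328-6872) and mt-Nd4 (MT:10167-11544). The 2 levels did not overlap in any library, since the lowest value of mt-Nd5 was 897 FPKM and the highest value of mt-Co2 was 102.5. mt-Co1 alone held 36.7% to 39.6% of the counts on the 13 mitochondrial genes.

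**Figure D1:**
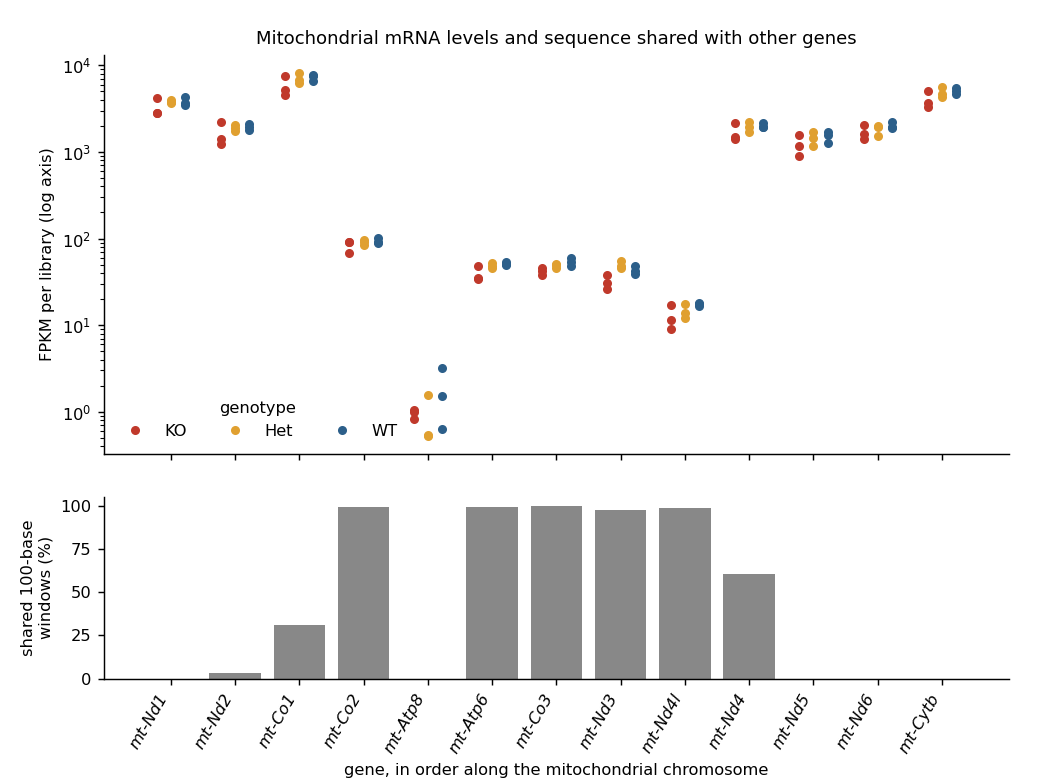
Top: FPKM of the 13 mitochondrial protein-coding genes in each library (points; KO left, Het middle, WT right; log axis), in order along the mitochondrial chromosome. Bottom: percent of each gene's 100-base windows that stand letter for letter in an annotated transcript of another gene. The run from mt-Co2 to mt-Nd4l is low in all 9 libraries, and 5 of its 6 genes are at 97.6% or more in the lower panel.

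The low stretch coincides with sequence that mouse chromosome 1 carries a second time. Of all 100-base windows of mt-Co2, 99.5% were also found in Gm28661, an annotated unprocessed pseudogene, and the same held for 99.5% of mt-Atp6 (in Gm10925), 99.9% of mt-Co3 (Gm28437), 97.6% of mt-Nd3 (Gm28438) and 98.5% of mt-Nd4l (Gm10222). mt-Nd4 shared 60.8% (Gm28439) although it stood at the high level, as did mt-Co1, which shared 30.8% with other genes in all and 26.3% with Gm29216, and mt-Nd2 shared 3.20%. mt-Nd1, mt-Nd5, mt-Nd6, mt-Cytb and mt-Atp8 shared none with an annotated transcript at this length, and mt-Atp8 among them was the lowest of the 13. Chromosome 1 sequence outside annotated transcripts was not searched. mt-Atp8 starts between mt-Co2 and mt-Atp6, and the sequence between their copies Gm28661 and Gm10925 is such a stretch. Over aligned bases, mt-Co2 had 0 mismatches to its copy in 681, mt-Atp6 0 in 678, mt-Co3 0 in 783, mt-Nd4l 0 in 294, mt-Nd4 0 in 876, mt-Nd3 1 in 345 and mt-Co1 6 in 492. The stretches below, on GRCm38, show how close the copies are. The first pair is identical, so a read inside it cannot be placed by its letters alone, and in the second pair the capital marks the only mismatch between the aligned genes.
mt-Co2, MT:7313-7392, plus strand: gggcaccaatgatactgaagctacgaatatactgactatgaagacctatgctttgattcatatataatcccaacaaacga
Gm28661, chr1:24615186-24615265, minus strand: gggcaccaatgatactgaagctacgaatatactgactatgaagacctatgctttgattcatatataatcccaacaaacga
mt-Nd3, MT:9459-9538, plus strand: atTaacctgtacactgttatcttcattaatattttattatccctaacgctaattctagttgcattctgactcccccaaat
Gm28438, chr1:24613040-24613119, minus strand: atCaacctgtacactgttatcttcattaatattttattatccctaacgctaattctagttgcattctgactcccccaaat

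Counts were present on both sides of each pair. Over all 9 libraries Gm28661 held 8274 counts and mt-Co2 10926, Gm10925 held 6620 and mt-Atp6 5594, Gm28437 held 5106 and mt-Co3 6725, Gm28438 held 620 and mt-Nd3 2565, and Gm10222 held 704 and mt-Nd4l 781. Adding the copy raised mt-Co2 to 28.07 counts per base from its own 15.97, mt-Atp6 to 17.9 from 8.21, mt-Co3 to 15.1 from 8.58, mt-Nd3 to 9.15 from 7.37 and mt-Nd4l to 5 from 2.63. mt-Co1 had 1190 counts per base. The sources used here do not say how reads with more than 1 placement were counted, so the levels of the 5 genes with annotated copies are uncertain. The part of the copies in the low level was not tested, nor whether mt-Atp8 has a copy outside annotated transcripts. Neighbours on the mitochondrial chromosome also overlap: mt-Atp8 and mt-Atp6 by 43 bases, mt-Nd4l and mt-Nd4 by 7, mt-Atp6 and mt-Co3 by 1, and mt-Nd5 and mt-Nd6 by 14 on opposite strands. Strandedness is not stated in them, so reads of mt-Nd6, the single mitochondrial member on the minus strand, cannot be told apart from RNA opposite to it.

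Between genotypes, the mitochondrial mRNAs were lower in 2 of the 3 KO libraries. The 13 genes summed to 19884, 31179 and 22225 CPM in KO libraries 1, 2 and 3, to 31983, 25326 and 28374 CPM in Het libraries and to 31005, 27557 and 32140 CPM in WT libraries. KO 1 and KO 3 were the lowest of all 9, and KO 2 lay inside the WT range. As a share of all counts they made up 2.04%, 3.38% and 2.22% in KO, 3.17%, 2.30% and 2.79% in Het and 3.09%, 2.94% and 3.09% in WT, with means of 2.55% ± 0.729, 2.75% ± 0.438 and 3.04% ± 0.0860 (SD, n = 3 each). The spread within KO was thus larger than its distance to WT. KO 1 was below every WT library in 12 of the 12 tested genes, KO 3 in 11 and KO 2 in 3. In bulk tissue, fewer cells rich in mitochondria and less mitochondrial RNA per cell cannot be told apart.

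In the KO against WT contrast none of the 12 tested mitochondrial genes was called by edgeR at an adjusted p under 0.05, where 0% of all 16836 genes tested were. All 12 fitted log2 fold changes were negative, from -0.47 to -0.16 with a median of -0.33, against a median of 0.006 over all genes tested. At an unadjusted p under 0.05 there were 2 of the 12, and 601 of all genes. All KO libraries lay below all WT libraries in 3 of the 12 genes, as in 6.04% of all genes, and above in 0 of the 12, as against 8.14% of all genes. The 12 genes come from shared transcripts and shared libraries and are not independent.

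The 3 genes without overlap were mt-Co3, mt-Atp6 and mt-Nd3, all within the stretch that chromosome 1 repeats. mt-Co3, a core subunit of complex IV, was at 30.7, 36.0 and 34.1 CPM in KO and 39.2, 42.9 and 47.5 CPM in WT, with a fitted change of -0.36 (SE 0.145). mt-Atp6, which forms the proton channel of complex V, was at 24.1, 32.9 and 24.3 CPM in KO and 36.0, 34.3 and 37.2 CPM in WT (-0.40, SE 0.17). mt-Nd3, a membrane subunit of complex I, was at 11.1, 13.5 and 9.30 CPM in KO and 13.9, 15.2 and 17.0 CPM in WT (-0.44, SE 0.22). Each adjusted p was 1 in edgeR's test. In each the gap between the groups was narrow, set by KO 2 and the lowest WT library. Counts on the chromosome 1 copies are not in these values. The copy of mt-Co3 held 501 counts in KO 2 and 511 in WT 1. That of mt-Atp6 held 723 in KO 2 and 852 in WT 2, and that of mt-Nd3 held 64 in KO 2 and 54 in WT 1. The separations can thus change with how reads were placed between gene and copy, which is not given. Over the low stretch the median change of the 5 tested genes was -0.40, and over the 7 genes at the high level, each of which overlapped between the groups, it was -0.27. These 6 and 7 genes were grouped after their levels were seen.

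The most abundant genes, mt-Co1 and mt-Cytb, had their lowest values in KO 1 and KO 3. mt-Co1 was at 7297, 11789 and 8335 CPM in KO, 12659, 9636 and 10558 in Het and 12114, 10491 and 12175 in WT, a fitted KO against WT change of -0.34 (SE 0.22). mt-Cytb was at 3890, 5932 and 4283 CPM in KO, 6365, 4922 and 5452 in Het and 5981, 5420 and 6294 in WT (-0.33, SE 0.20). In both, KO 1 and KO 3 were below the other 7 libraries, and KO 2 was not. The other abundant genes did not all keep that order: in mt-Nd5 and mt-Nd6, KO 3 was above Het 2. The remaining fitted changes in KO against WT were -0.23 for mt-Nd1, -0.27 for mt-Nd2, -0.27 for mt-Nd4, -0.32 for mt-Nd5, -0.26 for mt-Nd6, -0.16 for mt-Co2 and -0.47 for mt-Nd4l. mt-Atp8 did not pass the filter for a test, at 0.220, 0.171 and 0.209 CPM in KO, 0.108, 0.322 and 0.110 in Het and 0.679, 0.133 and 0.311 in WT, and its groups overlapped.

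Without KO 2 the median of the mitochondrial genes in KO against WT was -0.54, and without KO 1 it was -0.18. KO 2 was also the library richest in skeletal muscle RNA. The 21 skeletal muscle markers, of which 20 had a count and Tnnc2 was at 0, summed to 880, 7043 and 1274 CPM in KO, 172, 748 and 640 CPM in Het and 387, 717 and 1519 CPM in WT. With the muscle score of each library as a covariate, the median mitochondrial change was -0.61 in KO against WT. The score largely followed genotype: 1.31, 4.83 and 2.24 in KO, -2.60, -1.59 and -1.82 in Het and -2.26, -1.87 and 1.76 in WT. KO and Het did not overlap in it, and of the WT libraries WT 3 alone reached the KO range. This fit therefore cannot separate muscle content from genotype. No mitochondrial gene was called by edgeR in that fit.

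In Het against WT the fitted changes of the mitochondrial genes were smaller; that difference between contrasts was not tested. The median fitted change of the 12 genes in Het against WT was -0.08, with 11 negative and 1 positive, and none was called, where 0% of all genes tested were. At an unadjusted p under 0.05 there were 0 of the 12 and 1522 of all genes. Het and WT overlapped in each of the 12. mt-Nd3 was the positive one, at 16.8, 16.1 and 19.2 CPM in Het and 13.9, 15.2 and 17.0 in WT (0.175, SE 0.22). The KO against WT and Het against WT contrasts share the WT libraries.

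Set against Het, the KO libraries again gave 12 negative changes of 12, with a median of -0.19. None was called, where 0% of all genes tested were, and 1 was at an unadjusted p under 0.05, against 1048 of all genes. mt-Nd3 was that one (-0.62, SE 0.22, edgeR adjusted p 0.702). All KO libraries were below all Het libraries in mt-Nd3 alone, and such an order held for 4.12% of all genes. Without KO 2 the median was -0.42.

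**Figure D2:**
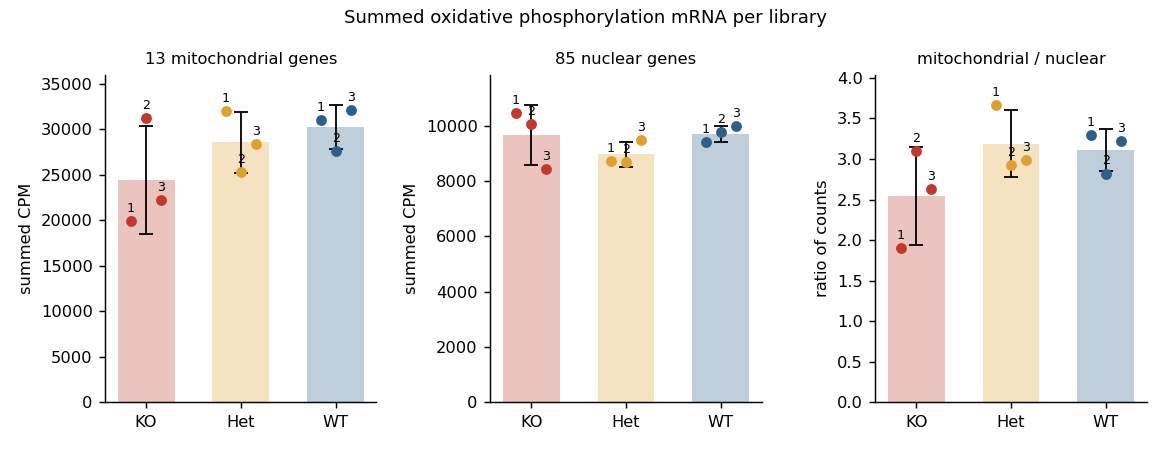
Summed CPM of the 13 mitochondrial (left) and 85 nuclear genes (middle), and the ratio of their counts (right), in KO, Het and WT libraries. Points are libraries with their replicate number, bars are means and error bars are SD (n = 3). KO 1 and KO 3 have the lowest mitochondrial sums, 19884 and 22225 CPM, and KO 1 has the highest nuclear sum, 10465 CPM.

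The nuclear genes did not share that order. They summed to 10465, 10076 and 8434 CPM in KO, 8737, 8674 and 9493 in Het and 9393, 9768 and 9972 in WT. KO 1, lowest in mitochondrial mRNA, was the highest in nuclear subunit mRNA, and KO 3 was the lowest in it. Mitochondrial counts were 1.90, 3.09 and 2.64 times the nuclear counts in KO, 3.66, 2.92 and 2.99 times in Het and 3.30, 2.82 and 3.22 times in WT. KO 1 and KO 3 had the lowest ratios of the 9 libraries, and KO 2 lay among the WT values.

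Most nuclear subunit mRNAs spanned a narrow range over the libraries. Over the 9 libraries the highest CPM was under 2 times the lowest for 72 of the 79 tested nuclear genes with a count in every library, and under 1.5 times for 39. The SD of log2 CPM over the 9 libraries had a median of 0.200 for the 82 tested nuclear genes and 0.242 for the 12 mitochondrial genes, against 0.471 for all genes tested. All genes tested were not matched to the members in read depth, and the part of depth in this difference was not tested. Per length, the median level was 48.0 FPKM in complex I, from Ndufa4l2, placed there by its name, at 1.16 to Ndufa2 at 203. It was 39.6 in complex II, from Sdhc at 32.5 to Sdhd at 63.6, and 96.7 in complex III, from Uqcrc2 at 35.3 to Uqcr10 at 167. In complex IV it was 53.1, with Cox7b2 at 0 and Cox8a highest at 473, and in complex V it was 45.9, with the empty Atp5o row at 0 and Atp5a1, the alpha subunit of the catalytic head, highest at 187. The median nuclear gene stood at 48.4 FPKM and the median mitochondrial gene at 1391.

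In KO against WT the nuclear genes split evenly. Of the 82 tested, 42 changes were positive and 40 negative, with a median of 0.001. None was called by edgeR, and 1 was at an unadjusted p under 0.05, as were 601 of all 16836 genes tested. DESeq2 and limma voom called none of the 94 tested members either. All KO libraries were above all WT libraries in 3 nuclear genes (Atp5o, Cox6a2 and Ndufs8) and below in 1 (Sdhd), both under the 8.14% and 6.04% of all genes. The medians by complex were 0.001 in complex I, 0.01 in II, 0.02 in III, -0.03 in IV and 0.002 in V. The 95% interval lay within a 2-fold change either way for 75 of the 82 nuclear genes and 11 of the 12 mitochondrial genes. It did so for 7698 of the 16836 genes tested, which were not matched to the members in read depth.

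**Figure D3:**
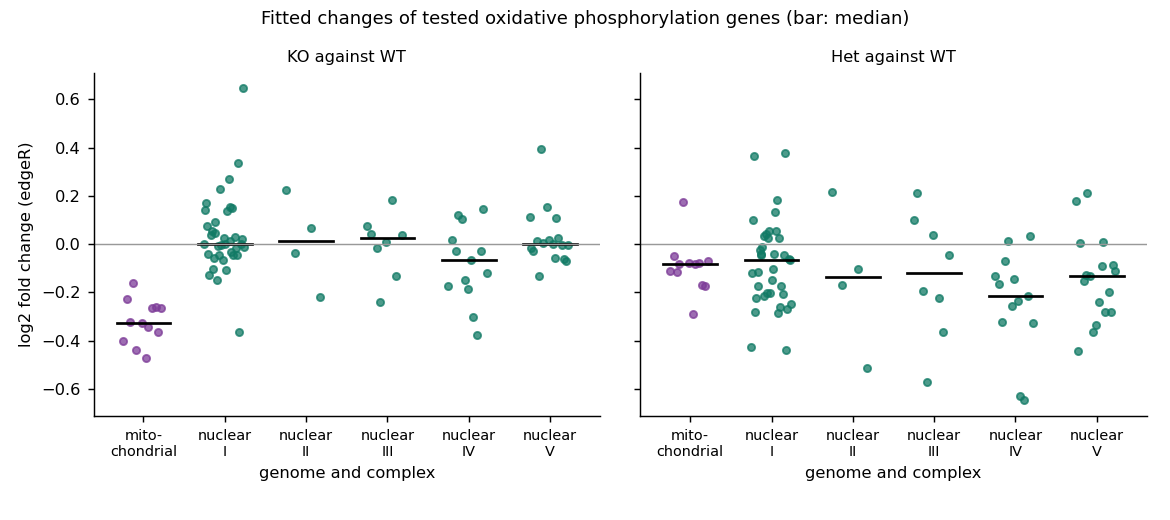
Fitted log2 fold changes (edgeR) of the tested members in KO against WT (left) and Het against WT (right), by genome and complex, with the median as a bar; Cox6a2, Cox7a1 and Cox8b are left out for scale. The mitochondrial points all lie below 0 in KO against WT, from -0.47 to -0.16, while the nuclear points lie on both sides of 0. In Het against WT most nuclear points lie below 0.

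In Het against WT most nuclear genes had lower fitted values, by small amounts. The median change of the 82 genes was -0.14, with 61 negative and 21 positive, against a median of -3e-04 over all genes tested. None was called by edgeR or DESeq2, and 6 were at an unadjusted p under 0.05 in edgeR, as were 1522 of all 16836 genes tested. All Het libraries were below all WT libraries in 9 nuclear genes, against 8.59% of all genes tested, and above in 4, against 4.7%. The 9 were Sdhd, Ndufa1, Uqcrq, Uqcrh, Cox7b, Ndufb10, Cox7a2, Atp5d and Atp5h, and the 4 were Sdha, Atp5o, Atp5a1 and Ndufa9. The median was -0.07 in complex I, -0.14 in II, -0.12 in III, -0.25 in IV and -0.13 in V. Among markers of other cells, the blood sum was lower in every Het library than in any WT library. The macrophage and endothelial sums overlapped between Het and WT. The 5 blood genes, all detected, summed to 47.2 to 82.6 CPM in KO, 9.98 to 27.7 in Het and 49.2 to 82.1 in WT. The 8 macrophage and dendritic cell genes summed to 232 to 349 CPM in KO, 153 to 222 in Het and 211 to 377 in WT, and the 10 of endothelium and pericytes to 89.1 to 192 in KO, 27.1 to 127 in Het and 67.2 to 117.3 in WT, with none of either list at 0 throughout. The low endothelial value was that of Het 1, and Het 2 was above every WT library. The part of these cells in the nuclear differences was not tested.

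In KO against Het 63 nuclear changes were positive and 19 negative, with a median of 0.16. None was called by edgeR and 7 were at an unadjusted p under 0.05, as were 1048 of all 16836 genes tested. All KO libraries were above all Het libraries in 11, against 7.8% of all genes, and below in 0, against 4.12%. The median was 0.01 once the muscle score entered as a covariate, but KO and Het did not overlap in that score.

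Complex II, succinate dehydrogenase, is made of 4 nuclear-encoded subunits, whose genotypes stood in different orders. Sdhd, the smaller membrane anchor, was at 85.7, 82.3 and 72.8 CPM in KO, 62.5, 65.8 and 67.8 in Het and 100.8, 85.7 and 93.8 in WT. The 3 groups did not overlap, with Het lowest and WT highest, although the highest KO library (85.70 CPM) and the lowest WT library (85.72 CPM) nearly met. The fitted change was -0.52 in Het against WT (SE 0.13, edgeR adjusted p 0.401), -0.22 in KO against WT (SE 0.13, adjusted p 1) and 0.30 in KO against Het (SE 0.13, adjusted p 0.787). It had the smallest p of the nuclear genes in Het against WT. Sdhc, the other membrane anchor, was at 117.5, 110 and 101.4 CPM in KO, 94.6, 95.9 and 109 in Het and 119, 114 and 104 in WT, with overlap between all groups (Het against WT -0.17, SE 0.13). Sdha, the flavoprotein that oxidises succinate, was at 166, 218 and 197 CPM in KO, 180, 196 and 201 in Het and 169, 159 and 168 in WT. All Het libraries were above all WT libraries in Sdha, at 0.22 (SE 0.14), and KO 1 lay inside the WT range. Sdhb, the iron-sulphur subunit, was at 83.1, 103.7 and 68.6 CPM in KO, 74.0, 89.96 and 62.8 in Het and 85.3, 75.7 and 82.7 in WT, all overlapping.

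Complex I members were the most numerous. All KO libraries were above all Het libraries in 4 of the 37, against 7.8% of all genes tested. All Het libraries were below all WT libraries in 2, against 8.59%, and all KO libraries above all WT libraries in 1, against 8.14%. In Ndufa1, Ndufb10 and Ndufs8 all libraries of 1 genotype lay apart from both others. The share of all genes with that order was not counted. Ndufa1, a small membrane-arm subunit encoded on the X chromosome, was at 94.0, 87.0 and 92.3 CPM in KO, 70.4, 72.4 and 60.4 in Het and 87.2, 88.2 and 97.7 in WT. Every Het library was below all 6 others, and KO and WT overlapped. The fitted change was -0.43 in Het against WT (SE 0.13, edgeR adjusted p 0.419), 0.001 in KO against WT and 0.43 in KO against Het (SE 0.13, adjusted p 0.64). Of the alternatives run, limma voom with sample quality weights alone called it, in Het against WT (adjusted p 0.0381), a setting that called 121 genes higher and 578 lower in all.

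Other complex I genes were named by their p-values. Ndufs8, an iron-sulphur subunit, was at 60.5, 55.3 and 56.6 CPM in KO, 38.8, 44.1 and 44.7 in Het and 52.9, 44.4 and 49.7 in WT, with all KO libraries above the rest (KO against WT 0.23, SE 0.13; KO against Het 0.43, SE 0.14). Ndufc1, an accessory subunit, had fitted changes of 0.34 in KO against WT and 0.38 in Het against WT (SE 0.20 each). Ndufs1, the largest iron-sulphur subunit, had 0.07 in KO against WT and 0.36 in Het against WT (SE 0.22 each). Ndufa12, an accessory subunit, had -0.37 in KO against WT and -0.44 in Het against WT (SE 0.32 each). edgeR called none of the 37 nuclear complex I genes in any contrast.

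In complex III, Uqcrq and Uqcrh, both small accessory subunits, were below WT in every Het library. Uqcrq was at 233, 179 and 142 CPM in KO, 176, 110 and 154 in Het and 208, 219 and 228 in WT, with the KO libraries on both sides of WT (Het against WT -0.57, SE 0.22, edgeR adjusted p 0.485; KO against WT -0.24, SE 0.21). Uqcrh, the hinge protein, was at 221, 182 and 164 CPM in KO, 165, 145 and 173 in Het and 188, 225 and 208 in WT (Het against WT -0.36, SE 0.15, adjusted p 0.526). Uqcrfs1, the Rieske iron-sulphur protein, had 0.21 in Het against WT (SE 0.15) and 0.04 in KO against WT. The core proteins Uqcrc1 and Uqcrc2 were within 0.05 of no change in both contrasts with WT.

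In complex V, Atp5o, the stalk subunit that confers oligomycin sensitivity, had the smallest nuclear p in KO against WT. It was at 83.5, 78.7 and 61.6 CPM in KO, 61.8, 62.4 and 73.3 in Het and 58.0, 55.8 and 56.7 in WT. All KO and all Het libraries were above all WT libraries, and KO and Het overlapped. The fitted change was 0.39 in KO against WT (SE 0.15, unadjusted p 0.0259, edgeR adjusted p 1) and 0.21 in Het against WT (SE 0.15). Of its 100-base windows 30.3% stand in transcripts of other genes, its span overlaps 3 other rows, 2 of them on the opposite strand, and its second row held no counts, so its level is uncertain. Atp5l, a membrane subunit, had -0.44 in Het against WT (SE 0.18, edgeR adjusted p 0.52) and -0.02 in KO against WT, and shares 69.0% of its windows. The 3 genes of the c-ring, which encode an identical mature protein, had these proportions: of their summed FPKM, Atp5g2 held 44.98% to 51.1% in KO, 43.8% to 49.3% in Het and 45.8% to 49.1% in WT, Atp5g3 40.0% to 45.8% in KO, 41.3% to 50.1% in Het and 41.5% to 44.96% in WT, and Atp5g1 the rest. Among all 85 nuclear rows, 56 share no 100-base window with another gene, and 37 overlap the span of another row.

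**Figure D4:**
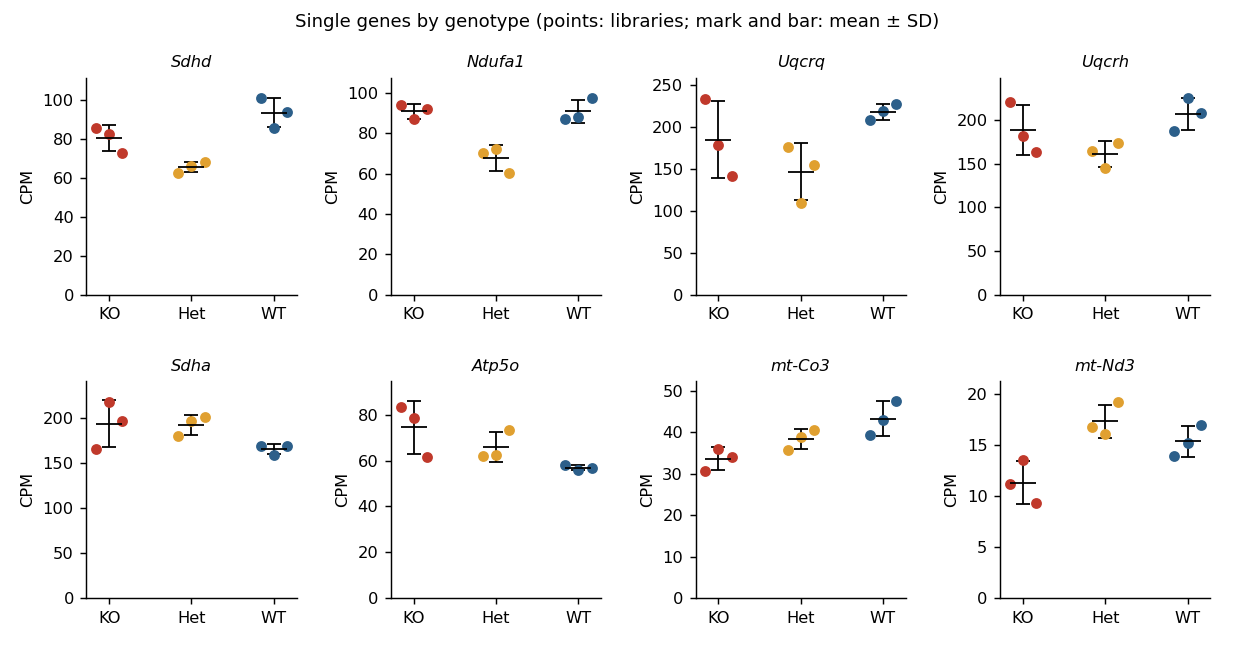
CPM of 8 members in each library (points) by genotype, with mean and SD (n = 3). Sdhd, Ndufa1, Uqcrq and Uqcrh are below WT in all Het libraries, and Atp5o is above WT in all KO and Het libraries. mt-Co3 and mt-Nd3, without the counts on their chromosome 1 copies, are below WT in all KO libraries. None of the 8 passed the adjusted test in edgeR.

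The widest differences among nuclear members were in complex IV, in the subunit forms of heart and skeletal muscle. Cox6a2, Cox7a1 and Cox8b are the striated muscle forms of subunits whose general forms are Cox6a1, Cox7a2 and Cox8a. Cox6a2 had 73, 771 and 109 counts in KO, none in any Het library and 0, 0 and 69 in WT. Cox8b had 69, 513 and 123 counts in KO, 4, 13 and 0 in Het and 6, 4 and 203 in WT. Cox7a1 had 96, 289 and 107 counts in KO, 12, 46 and 67 in Het and 24, 47 and 114 in WT. KO 2 was highest for all 3, WT 3 stood above the other WT libraries in each, and every KO library was above every Het library.

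None of the 3 was called. Cox6a2 passed the filter on low counts through the KO libraries. With no count in Het it could pass through the other genotypes alone, so its fold against Het describes a level and tests no difference. At the pooled KO value of 17.34 CPM it was at least 338-fold higher than in Het. The floor in Het was set at 3 counts over the 3 libraries. That floor covers counting error in Het only, and the spread among the KO libraries is not in the bound. KO 2 carried much of the pooled value: without it, a setting chosen after seeing the data, the bound was 94.9-fold. In KO against WT its fitted change was 3.91 (SE 2.04), that of Cox7a1 1.56 (SE 0.77) and that of Cox8b 1.84 (SE 1.54), and edgeR gave each an adjusted p of 1. Leaving out 1 library at a time gave 2.03 to 11.4 for Cox6a2, 0.82 to 2.44 for Cox7a1 and 0.48 to 5.72 for Cox8b; the low end came without KO 2 and the high end without WT 3.

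As shares of the FPKM of their subunit, the muscle forms were minor in most libraries. Cox6a2 made up 1.39%, 15.6% and 2.71% of Cox6a1 and Cox6a2 together in KO, 0% in the 3 Het libraries and 0%, 0% and 1.20% in WT. Cox7a1 made up 8.27%, 25.1% and 11.8% of Cox7a1 and Cox7a2 in KO, 1.83%, 4.43% and 7.02% in Het and 2.49%, 3.51% and 9.56% in WT. Cox8b made up 1.72%, 15.4% and 4.48% of the Cox8 forms in KO, 0.158%, 0.378% and 0% in Het and 0.176%, 0.0954% and 4.86% in WT. The general forms overlapped between KO and WT: Cox6a1 was at 294, 245 and 212 CPM in KO and 261, 290 and 303 CPM in WT, and Cox8a at 328, 242 and 207 CPM in KO and 269, 281 and 312 CPM in WT. Skeletal muscle markers went with the muscle forms. Ckm, the creatine kinase of muscle, was at 28.7, 459 and 58.1 CPM in KO, 2.38, 29.6 and 16.5 in Het and 9.20, 13.1 and 58.8 in WT. Myh4, a fast myosin, was at 27.8, 1077 and 105.2 CPM in KO, 0 in the 3 Het libraries and 0, 0 and 61.4 CPM in WT, the same libraries in which Cox6a2 was detected. With the muscle score as a covariate the fitted KO against WT change was -0.25 for Cox7a1 and -0.91 for Cox8b, against 1.56 and 1.84 without it, and that of Cox6a2 stayed positive, at 0.69 against 3.91. Because the score largely followed genotype, this fit does not give the change at equal muscle content. With these 3 genes left out, the nuclear median was -0.001 in KO against WT and -0.13 in Het against WT.

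**Figure D5:**
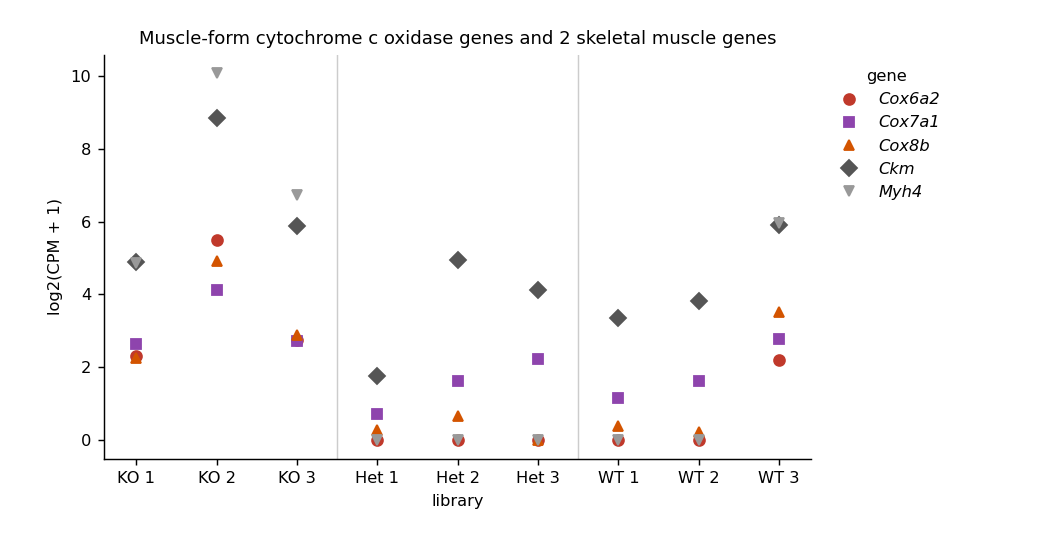
log2(CPM + 1) of the muscle forms Cox6a2, Cox7a1 and Cox8b and of the skeletal muscle genes Ckm and Myh4 in each library, KO left, Het middle, WT right. KO 2 is highest for all 5 genes, and Cox6a2 and Myh4 are at 0 in the same 5 libraries.

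The remaining isoform pairs mostly overlapped between genotypes. Cox7a2 was at 103, 86.4 and 73.5 CPM in KO, 61.2, 80.5 and 86.4 in Het and 86.5, 101 and 98.6 in WT, with Het below WT by a narrow gap. Cox7a2l, a relative that helps respiratory supercomplexes form, was at 358, 279 and 243 CPM in KO, 316, 215 and 253 in Het and 347, 302 and 273 in WT. Cox7b was at 115, 91.0 and 93.6 CPM in KO, 86.6, 76.8 and 81.1 in Het and 105.2, 92.5 and 108 in WT, every Het library being below all others. Cox4i1, the general form of subunit 4, was at 619, 514 and 436 CPM in KO, 576, 476 and 561 in Het and 536, 616 and 616 in WT. Cox4i2, the form of subunit 4 known from lung and low oxygen, made up 0.278%, 0.411% and 0.212% of the Cox4 pair by FPKM in KO, 0%, 0.472% and 0.270% in Het and 0%, 0.521% and 0.428% in WT. Cox6b2, known from testis, made up 0.786% to 1.30% of the Cox6b pair in KO, 0.331% to 1.60% in Het and 0.316% to 2.52% in WT. Ndufa4l2, a gene known to respond to low oxygen, made up 1.24% to 1.57% of the Ndufa4 pair in KO, 0.527% to 1.16% in Het and 0.507% to 1.70% in WT. The groups overlapped in the shares of Cox4i2, Cox6b2 and Ndufa4l2, except that all KO shares of Ndufa4l2 were above all Het shares. In CPM, Ndufa4l2 overlapped between KO and Het, with KO 3 at 1.20 and Het 2 at 1.24. Cox8c, a testis form, was seen in KO 1 and KO 2 alone, at 0.384 and 0.114 CPM. The 7 sperm and germ cell markers summed to 0 to 0.274 CPM in KO, 0 in each Het library and 0.157 to 0.984 CPM in WT, with 5 detected and Tnp2 and Akap4 at 0.

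The genes that build and serve the complexes showed no call either. None of the lists of assembly factors, mitochondrial transcription, mitochondrial ribosome, biogenesis regulators, citric acid cycle or glycolysis had a gene past an adjusted p of 0.05 in edgeR in any of the 3 contrasts. The mitochondrial ribosome, which translates the 13 mitochondrial mRNAs, had 77 of 78 genes tested. Its median change was -0.04 in KO against WT, with 26 positive and 51 negative, and -0.14 in Het against WT, with 14 positive and 63 negative. In Het against WT 7 of the 77 were at an unadjusted p under 0.05, as were 1522 of all 16836 genes tested. All Het libraries were below all WT libraries in 14 of the 77, against 8.59% of all genes, and above in 0, against 4.7%. Mrpl24 had the smallest p of them, at 45.2, 49.1 and 46.8 CPM in Het and 72.0, 62.4 and 62.4 CPM in WT (-0.48, SE 0.14, edgeR adjusted p 0.417).

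Assembly factors were scattered. The 15 of complex I had medians of 0.04 in KO against WT and 0.02 in Het against WT, the 4 of complex II 0.20 and -0.10, the 8 genes of complex III, cytochrome c and their assembly 0.17 and 0.05, the 18 tested of complex IV -0.08 and 0.06, and the 3 of complex V -0.12 and 0.05. All 8 of the complex III and cytochrome c list were positive in KO against WT. Lyrm7, a chaperone of the Rieske protein, had the highest change of them, at 2.14, 3.18 and 2.14 CPM in KO, 3.29, 1.79 and 2.32 in Het and 0.314, 0.887 and 1.45 in WT (KO against WT 1.49, SE 0.67, adjusted p 1).

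Genes for copying and expressing mitochondrial DNA had 28 tested, with a median of -0.08 in KO against WT, 8 positive and 20 negative. All KO libraries were above all WT libraries in 2 of the 28 (Mterf2 and Polg), against 8.14% of all genes tested. They were below in 3 (Tfb1m, Mterf4 and Fastkd2), against 6.04%. All Het libraries were below all WT libraries in 3 (Mterf4, Ssbp1 and Fastkd1), against 8.59% of all genes, and above in 0, against 4.7%. Tfam, the packaging and transcription factor of mitochondrial DNA, was at 19.6, 24.4 and 29.1 CPM in KO, 15.2, 23.1 and 26.0 in Het and 28.7, 25.3 and 20.7 in WT. Polrmt, the mitochondrial RNA polymerase, was at 21.4, 21.1 and 26.1 CPM in KO, 20.4, 32.5 and 20.0 in Het and 24.6, 22.9 and 29.3 in WT. Lrpprc, which stabilises mitochondrial mRNA, was at 37.2, 48.0 and 38.2 CPM in KO, 34.8, 50.2 and 41.9 in Het and 46.6, 36.3 and 39.0 in WT. KO overlapped WT in all 3 genes, and their part in the mitochondrial mRNA levels was not tested.

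Among regulators of mitochondrial biogenesis, 11 of 12 were tested, with medians of -0.06 in KO against WT and -0.17 in Het against WT. Ppargc1a, the coactivator PGC-1 alpha, was at 3.18, 10.9 and 5.96 CPM in KO, 6.75, 3.995 and 6.51 in Het and 4.75, 2.17 and 2.43 in WT. Its fitted change in KO against WT was 1.10 (SE 0.52, edgeR adjusted p 1), with overlap. Of the citric acid cycle, 19 genes had medians of 0.02 in KO against WT and 0.01 in Het against WT. Cs, citrate synthase, was at 149, 188 and 155 CPM in KO, 123, 192 and 172 in Het and 172, 140 and 161 in WT. Of glycolysis and lactate handling, 16 of 19 changes were positive in KO against WT, with a median of 0.22. In edgeR 3 of the 19 were at an unadjusted p under 0.05, as were 601 of all 16836 genes tested. Pkm, pyruvate kinase, was the first of them, at 449, 596 and 453 CPM in KO and 348, 404 and 373 CPM in WT (0.41, SE 0.15, adjusted p 1). Muscle also expresses genes of this list, and the part of the muscle RNA given above was not tested.

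NRF1 and GABPA are transcription factors known to bind promoters of respiratory genes, and their recognition letters were searched in the promoters of nuclear members. A window of 250 bases before to 50 bases after the start was available from RefSeq (GRCm38.p6) for 66 of the 84 nuclear names. The NRF1 letters, GCGCA and GCGC with any 1 base between them, read on both strands, stood in 17 of the 66 genes (25.8%) and in 5.19% of the 27025 genes of the table. The GABPA letters CCGGAAG, read on both strands, stood in 16 (24.2%) and in 9.93% of all genes. Both stood in 4 (6.06%), against 1.12% of all genes. A match is a run of letters and not a measured site. The genes of the promoter table were not matched to the members in expression or base content. The part of these in the differences was not tested. Nrf1 itself was at 25.3, 17.0 and 18.8 CPM in KO, 19.2, 27.9 and 19.1 in Het and 20.5, 23.9 and 19.1 in WT, and Gabpa at 22.3, 23.2 and 29.9 CPM in KO, 27.6, 37.8 and 20.1 in Het and 33.9, 27.1 and 37.8 in WT, both with overlap. The general form Cox8a and the muscle form Cox8b are printed as a pair that differed in level between libraries, and Sdhd as the member with the smallest p in Het against WT; capitals mark NRF1 or GABPA letters on either strand. The Cox8a window holds 2 GABPA matches, the Cox8b window none of either motif, and the Sdhd window 1 of each. The windows of the general form Cox7a2, the muscle form Cox7a1 and Ndufa1, not printed, hold 0 of either motif. That of Cox6a1 holds 2 NRF1 matches and 1 GABPA match. The printed pair thus does not stand for general and muscle forms at large.
Cox8a, chr19:7217567-7217866, minus strand: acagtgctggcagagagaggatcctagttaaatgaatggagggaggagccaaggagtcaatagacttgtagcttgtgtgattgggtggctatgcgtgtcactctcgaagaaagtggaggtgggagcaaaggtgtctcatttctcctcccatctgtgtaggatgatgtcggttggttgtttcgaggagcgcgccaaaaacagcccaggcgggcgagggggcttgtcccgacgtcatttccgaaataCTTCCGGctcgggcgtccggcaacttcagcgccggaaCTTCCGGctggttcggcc
Cox8b, chr7:140900397-140900696, minus strand: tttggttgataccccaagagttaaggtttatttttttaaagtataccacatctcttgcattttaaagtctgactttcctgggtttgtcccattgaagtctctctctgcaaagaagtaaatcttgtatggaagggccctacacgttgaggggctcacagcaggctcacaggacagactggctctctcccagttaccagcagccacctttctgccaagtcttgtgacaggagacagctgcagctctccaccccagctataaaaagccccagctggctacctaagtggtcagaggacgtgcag
Sdhd, chr9:50603800-50604099, minus strand: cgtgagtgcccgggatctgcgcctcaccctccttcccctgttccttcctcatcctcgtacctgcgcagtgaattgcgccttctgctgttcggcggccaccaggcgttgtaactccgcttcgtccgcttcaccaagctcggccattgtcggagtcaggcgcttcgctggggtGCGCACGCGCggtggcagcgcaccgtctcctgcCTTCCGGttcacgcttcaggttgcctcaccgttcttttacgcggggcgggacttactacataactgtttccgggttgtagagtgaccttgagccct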

How the data were processed

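PolyA-enriched RNA of mouse prostate was measured in 9 libraries (KO, Het and WT at Srd5a2, 3 each), with inserts of 250 to 300 bp per the labels' protocols. Deposited by the authors were unnormalised whole-number counts for each gene and library, and FPKM, the counts per gene length and library total. The deposited FPKM imply library totals of 0.907 to 1.10 times the plain sums. A table of FPKM means per genotype was not used. Per the submitters' processing notes, the build was GRCm38 (mm10). Aligner, counter, strandedness and the treatment of reads with several placements: not given in the sources used here. All 98 members were found in GENCODE vM21, 92 with the same coordinates. Genotypes come from the library names in the labels.

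Counts of all 9 libraries were fitted in 1 edgeR 4.0.16 quasi-likelihood model (robust, TMM, R 4.3.3) with genotype as the single factor. The filterByExpr rule kept 16836 of 54532 genes. P-values were adjusted by Benjamini-Hochberg over all genes tested, with a call under 0.05. SE was taken from each fitted change and its F statistic (change over root F), and intervals are at 95%. edgeR called no gene in any contrast, with a lowest adjusted p of 0.9996 in KO against WT, 0.38 in Het against WT and 0.311 in KO against Het. A fold against a group at 0 uses 3 counts over the group. A muscle score is the mean log2 CPM (prior count 2) of the tested skeletal muscle markers, less its mean over the libraries. Shared sequence was counted as exact windows of 50 or 100 bases in GENCODE transcripts of other genes. The fitting step was run on simulated data with known changes, but the share of them that it called is not given here. DESeq2 1.42.0, limma 3.58.1 voom with and without quality weights, other scalings and filters, a muscle covariate and left-out libraries were alternatives.

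The members and lists were chosen with earlier results of these data known. Named with values were all mitochondrial members, the 5 nuclear members with the smallest p in each direction in each contrast with WT, the highest and lowest of each complex, the isoform genes and the 4 Sdh genes. Ndufb10, Atp5d, Atp5h, Atp5a1, Ndufa9, Atp5l's shared windows, Uqcrc1, Mrpl24, Lyrm7, Ppargc1a, Tfam, Polrmt, Lrpprc, Tfb1m, Polg, Mterf2, Mterf4, Fastkd1, Fastkd2, Ssbp1, Cs, Pkm, Nrf1, Gabpa, Ckm and Myh4 were chosen from the lists after their values were seen.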

Additional observations from a re-analysis of the deposited data

How the results depend on the processing

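No mitochondrial member was called in any contrast under any alternative run, and no nuclear member except 1 in Het against WT with limma voom quality weights, which was Ndufa1 (-0.54, adjusted p 0.0381). DESeq2 called 11 genes higher and 3 lower in KO against WT, 54 and 151 in Het against WT and 156 and 13 in KO against Het, with no member among them; voom without weights called none. Without Het 1, edgeR called 56 genes higher and 202 lower in Het against WT, 14 and 4 in KO against Het and 1 and 0 in KO against WT, again with no member. Once the muscle score entered as a covariate, the median mitochondrial change was -0.608 in KO against WT and -0.579 in KO against Het, and the nuclear median in KO against Het was 0.010. The score largely followed genotype, without overlap between KO and Het, so that fit cannot separate muscle content from genotype. Leaving out 1 library at a time, the mitochondrial median ran from -0.540 to -0.183 in KO against WT and from -0.422 to -0.089 in KO against Het, both lowest without KO 2 and highest without KO 1. The nuclear median ran from -0.071 to 0.092 in KO against WT, from -0.187 to -0.077 in Het against WT and from 0.076 to 0.225 in KO against Het. Without WT 1, WT 3 and Het 2 together the mitochondrial median in Het against WT was 0.081, against -0.082. The same covariate reversed Cox7a1 (-0.248 in KO against WT, 0.329 in Het against WT, -0.578 in KO against Het) and Cox8b (-0.913 in KO against WT, -0.418 in KO against Het). In Het against WT, Cox7a1 was 0.405 with voom quality weights, 0.052 without WT 1, WT 3 and Het 2 together, and -1.149 to 0.345 leaving out 1 library; Cox8b was -4.996 to 0.191, and both were positive without WT 3. The causes were not tested. Over 43 gene results and 899 alternative values, 889 kept direction and side of the threshold, 9 reversed and 1 passed it. No paired analysis was possible because the replicate numbers follow accession order and pair nothing. Genes with near-identical copies, 3 libraries a genotype and the muscle, blood and gland RNA in them limit these values.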
